A study of Rattus norvegicus with 48 samples.

Results

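The miR-106b/93/25 cluster is a group of 3 microRNA (miRNA) hairpins that are cut from a single primary transcript, and its mature products were measured here in the livers of thioacetamide-treated rats. The members were found by name in the deposited table of raw counts as every mature miRNA of the miR-106b, miR-93 or miR-25 hairpin. This rule gave 6 members, rno-miR-106b-5p, rno-miR-106b-3p, rno-miR-93-5p, rno-miR-93-3p, rno-miR-25-3p and rno-miR-25-5p, written below without the prefix of the rat. They were found among 764 mature miRNAs listed and 664 with at least 1 read. All 6 passed the filter of at least 5 RPM, reads scaled to the total of a library, in at least 3 libraries, which left 301 miRNAs to be tested. Thioacetamide (TAA) is a hepatotoxic and hepatocarcinogenic compound that is activated in the liver. Male Sprague-Dawley rats were given TAA daily at 4.5 mg/kg (low dose), 15 mg/kg (middle dose) or 45 mg/kg (high dose) for 3, 7, 14 or 28 days, and these times are written 3-d to 28-d. Time-matched controls were given vehicle alone, and the livers were taken 24 hours after the last dose. The 16 groups held 3 rats each, so that 48 liver libraries were counted, and the age of the rats is not given in the sources used here. All values come from pieces of whole liver, in which fewer cells of a type and less of a miRNA per cell cannot be told apart.

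In mammals the 3 hairpins lie within the gene Mcm7, which encodes a subunit of the helicase that opens DNA for replication, and they are made from its transcript. That transcript is under the control of E2F factors, so the cluster is known as a set of miRNAs of proliferating cells, and its overexpression is well known from liver tumours. A hairpin is cut into a 5p and a 3p arm, of which usually 1 is loaded into Argonaute as the guide strand while the other is mostly degraded. The guide finds its messenger RNAs mainly through the seed, bases 2 to 8 of the mature miRNA. miR-106b-5p and miR-93-5p share the seed of the miR-17 family, whose known targets include the cell cycle inhibitor p21 (Cdkn1a), and miR-25-3p has the seed of the miR-92 family, whose known targets include the pro-apoptotic Bim (Bcl2l11).

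In the RefSeq annotation of rat build GRCr8 the hairpins lay on the minus strand of chromosome 12. Mir106b was at 22157053 to 22157134, Mir93 at 22156844 to 22156930 and Mir25 at 22156641 to 22156724. All 3 were inside the span of Mcm7, from 22155921 to 22163320 on the same strand. The cluster covered 494 bases, with 122 bases between Mir106b and Mir93 and 119 bases between Mir93 and Mir25. The exons of Mcm7 were not analysed here. The mature sequences of all 6 members, from RefSeq, are shown because the seeds decide which members belong together, with the seed in capitals.
miR-106b-5p: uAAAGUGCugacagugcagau
miR-93-5p: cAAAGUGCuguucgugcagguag
miR-25-3p: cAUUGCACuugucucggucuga
miR-106b-3p: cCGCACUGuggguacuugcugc
miR-93-3p: aCUGCUGAgcuagcacuucccga
miR-25-5p: aGGCGGAGacacgggcaauugc
The first pair had the same seed and differed at 5 of the 21 positions they share, counted from the 5′ end. The other 4 members each had a seed of their own within the cluster. Among the 301 tested miRNAs, the seed of miR-106b-5p and miR-93-5p was found also in miR-17-5p and miR-20a-5p, and that of miR-25-3p also in miR-32-5p, miR-92a-3p, miR-92b-3p and miR-363-3p.

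The hairpin of miR-93 is shown because the largest differences of the cluster lay between its arms, and that of miR-25 because its balance was the opposite. Capitals mark the mature arms.
Mir93: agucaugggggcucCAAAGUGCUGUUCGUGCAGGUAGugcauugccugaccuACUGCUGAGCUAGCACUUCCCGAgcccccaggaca
Mir25: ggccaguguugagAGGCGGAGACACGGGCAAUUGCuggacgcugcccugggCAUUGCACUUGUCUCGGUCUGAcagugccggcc
In miR-93 the abundant arm is the 5p arm, which opens the hairpin, and in miR-25 it is the 3p arm, which closes it.

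Library totals were 4829217 to 14906217 counts in 47 libraries, with a median of 10237542 over all 48. A single library, control 3-d replicate 1, stood apart with 293331 counts, and a count of 3 corresponds to 10.2 RPM there. Its 4 red blood cell miRNAs (miR-451-5p, miR-144-3p, miR-144-5p and miR-486) summed to 81096 normalized RPM, against 4426 and 6781 in the other 3-d controls. Almost all of this sum was miR-486, at 80944, so that it does not speak for the rest of the list. Its 4 hepatocyte miRNAs (miR-122-5p, miR-122-3p, miR-192-5p and miR-194-5p) summed to 103835 normalized RPM, the lowest of all libraries, against 208790 and 228372. All 17 marker miRNAs of hepatocytes, red blood cells, leukocytes and stellate or smooth muscle cells were tested and none was at 0, and miR-122-5p, which defines hepatocytes, ranked 8 of 301. No 2 libraries were identical. Values below are RPM after upper quartile normalization unless stated, and results at 3-d are given with and without control 3-d replicate 1 where it decides them.

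The cluster made up 0.217% of all counts on average, with a range of 0.123 to 0.305% over the 48 libraries. miR-25-3p was its main product, with a median of 73.8% of the cluster's reads, and ranked 43 of 301 by mean level. miR-93-5p followed with 19.97% and rank 77, and miR-106b-5p with 4.23% and rank 136. The partner arms were much rarer. miR-106b-3p took 1.03% of the cluster's reads (rank 196), miR-93-3p 0.386% (rank 253) and miR-25-5p 0.198% (rank 275). The 6 mature miRNAs are 21 to 23 bases long, so that no length correction was made in setting their levels side by side. The cluster's share of all counts was 0.209% ± 0.0274 (SD, n = 3) in the 3-d controls, 0.201% ± 0.00654 in the 7-d, 0.159% ± 0.00798 in the 14-d and 0.137% ± 0.0122 in the 28-d controls.

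**Figure D1:**
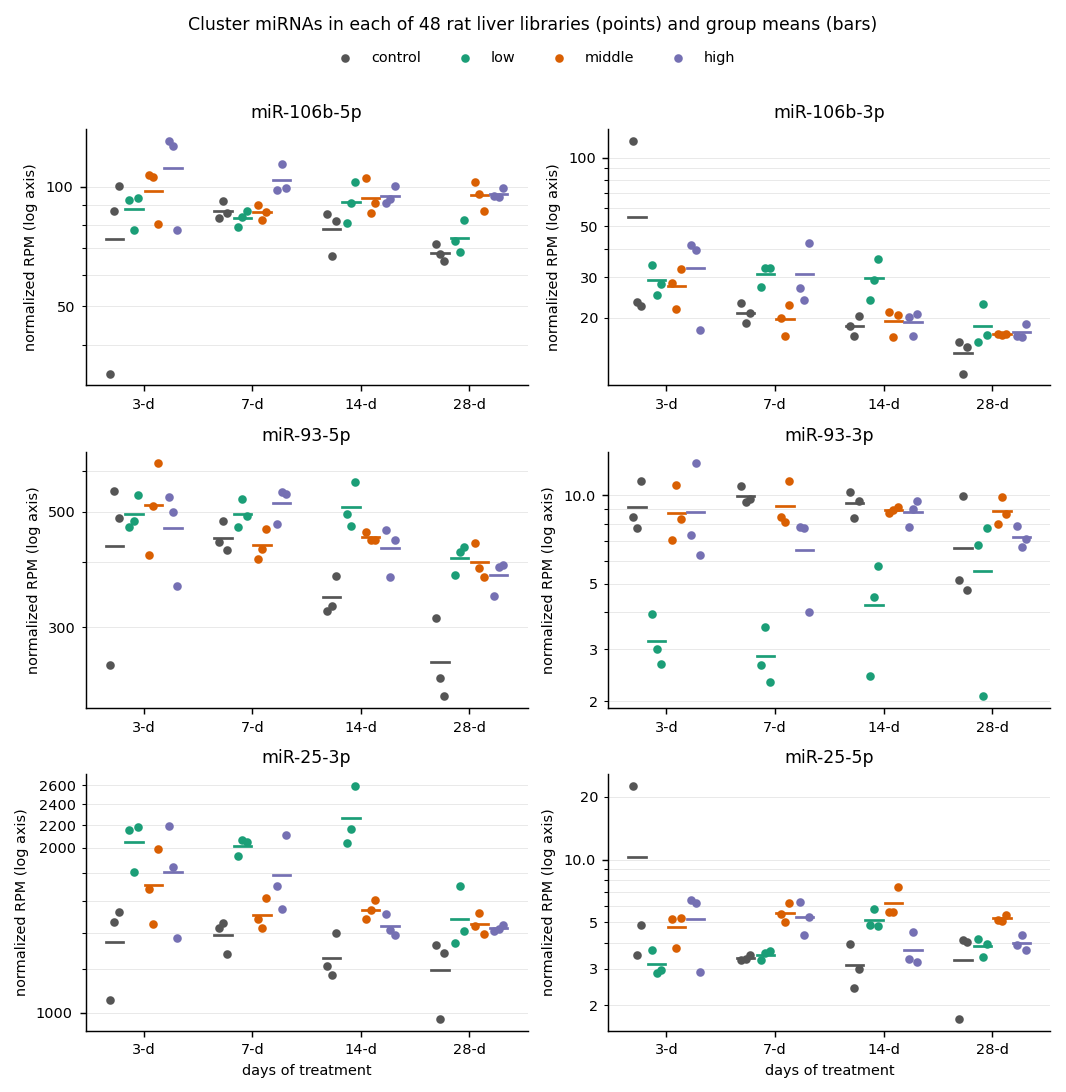
Level of the 6 members in normalized RPM (log axis) against days of treatment, 1 point per library and a bar for the mean of each group of 3 rats, coloured by dose. miR-93-3p lies between 2.32 and 5.77 in the 9 low dose libraries of 3-d, 7-d and 14-d and between 7.75 and 11.2 in the controls of these times. The point at 118 for miR-106b-3p is control 3-d replicate 1.

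Each treatment condition was compared with its time-matched controls in a separate fit, and a differentially expressed miRNA (DEM) had a fold change above 1.5 and an unadjusted p-value below 0.05 in edgeR's quasi-likelihood test. Over 6 members and 12 conditions, 12 of 72 comparisons (16.7%) gave a DEM, beside 18.1% over all tested miRNAs. Of these, 9 were higher (12.5%, beside 12.1%) and 3 were lower (4.17%, beside 5.98%), and 7 had a Benjamini-Hochberg adjusted p-value below 0.05 (9.72%, beside 11.1%). The cluster as a group was therefore called about as often as the background. Over 10 other settings the members had 6 to 15 DEMs, 3 to 12 of them higher and 0 to 4 lower. The 9 higher ones became 4 under TMM normalization and under DESeq2's size factors, 3 with pooled controls and 12 with library size alone. Treated and control values did not overlap in 33 of 72 comparisons (45.8%, beside 35.5%), higher in 29 and lower in 4. Over all tested miRNAs they were higher in 767 and lower in 515 of 3612 comparisons. The log2 fold change of the members was above 0 in 52 comparisons and below 0 in 20, beside 1979 and 1633 over all tested miRNAs. The median log2 fold change was 0.25 over the members and 0.06 over all tested miRNAs. Under TMM normalization, DESeq2's size factors and library size alone, 51, 50 and 55 of the 72 were above 0. The scaling matters most on 3-d, where the median difference of all tested miRNAs, as log2 (normalized RPM + 1), was 0.27 to 0.33 by upper quartile and 0.03 to 0.08 by TMM. The DEMs were unevenly spread over the members, with 5 for miR-25-5p, 3 for miR-93-3p, 2 for miR-93-5p, 1 each for miR-25-3p and miR-106b-3p and 0 for miR-106b-5p. The low dose at 14-d held 4 of the 12. In that condition 4 of the 6 members were DEMs, beside 32.6% of all tested miRNAs.

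**Figure D2:**
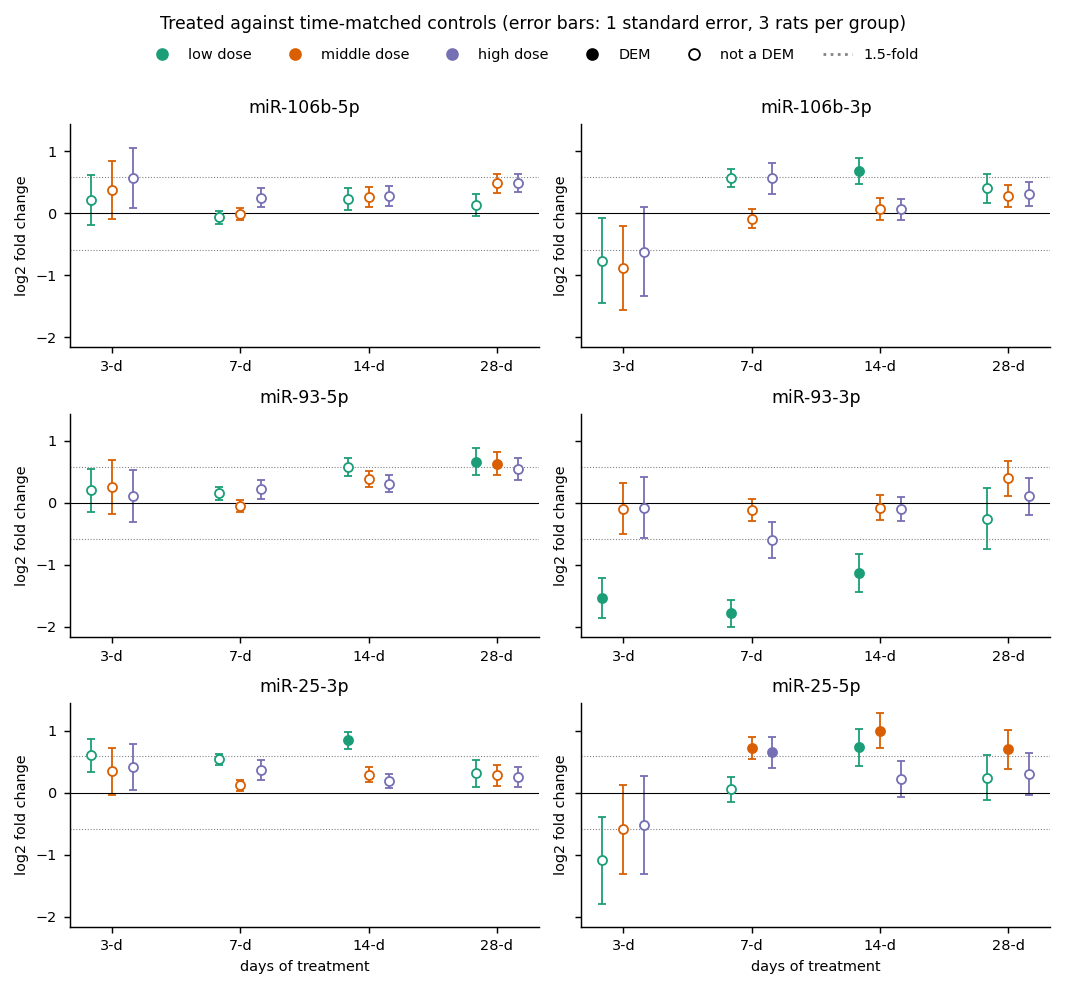
Log2 fold change of each member against time-matched controls in the 12 conditions, with 1 standard error (3 rats per group). Filled points are DEMs and dotted lines mark 1.5-fold. The 3 lower DEMs are miR-93-3p at the low dose, with log2 fold changes on 3-d, 7-d and 14-d of -1.53, -1.78 and -1.14.

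miR-93-3p, the rare partner arm of miR-93-5p, was the member that fell. At the low dose it was 3.95, 3.00 and 2.66 normalized RPM on 3-d, against 8.46, 7.75 and 11.2 in the controls. On 7-d it was 2.64, 3.58 and 2.32 at the low dose, against 10.7, 9.52 and 9.68. On 14-d it was 2.44, 4.50 and 5.77, against 10.3, 8.39 and 9.55. In each of these times every low dose rat lay below every control, as in 11%, 22.9% and 17.3% of all tested miRNAs. The log2 fold change was -1.53 ± 0.32 (SE) on 3-d, where 16.6% of all tested miRNAs were DEMs, with an adjusted p of 0.155 by edgeR. It was -1.78 ± 0.21 on 7-d (adjusted p 0.000344) and -1.14 ± 0.31 on 14-d (adjusted p 0.0136). Without control 3-d replicate 1, which held 3 reads of this miRNA, the 3-d value was -1.56 with an adjusted p of 0.0149. On 28-d the low dose rats gave 6.80, 2.08 and 7.74, against 5.17, 9.97 and 4.76, and these groups overlapped. The log2 fold change was -0.26 ± 0.49 (adjusted p 0.80), and it was 0.12 without low dose 28-d replicate 29.

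At the middle dose miR-93-3p was between 7.02 and 11.2 normalized RPM in all 12 libraries, and no comparison with the controls was a DEM. On 28-d its log2 fold change was 0.40 ± 0.28 (adjusted p 0.285), and it became a higher DEM without control 28-d replicate 17 (0.82) or with library size alone (0.66). At the high dose on 7-d it was 7.80, 7.74 and 4.02, all below the controls, as in 12.6% of all tested miRNAs. The log2 fold change of -0.60 ± 0.29 did not pass the test (adjusted p 0.23 by edgeR) except with no filter (-0.78). The remaining high dose conditions had log2 fold changes between -0.10 and 0.11. In a fit of all 48 libraries the low dose differed from both other doses at 3 of the 4 times. The middle dose was higher than the low dose by 1.44 ± 0.35 (SE, log2; adjusted p 0.00825) on 3-d, by 1.68 ± 0.35 on 7-d (adjusted p 0.000868) and by 1.06 ± 0.34 on 14-d (adjusted p 0.0220). The high dose was higher than the low dose by 1.45 ± 0.35 on 3-d (adjusted p 0.00835), by 1.19 ± 0.35 on 7-d (adjusted p 0.02997, and 0.103 with no filter, where the call was lost) and by 1.04 ± 0.34 on 14-d (adjusted p 0.0289). Thus the fall was seen at the smallest of the 3 doses and did not follow the order of the doses. These are levels near the filter: miR-93-3p had 16 to 47 reads in each of the 9 low dose libraries of 3-d to 14-d and 71 to 109 in the controls of these times, control 3-d replicate 1 apart.

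miR-93-5p, the guide arm of the same hairpin, did not fall with its partner. On 7-d at the low dose it was 468, 530 and 492 normalized RPM, against 437, 480 and 422 in the controls, a log2 fold change of 0.15 ± 0.10 (adjusted p 0.249). On 14-d it was 496, 470 and 570 at the low dose, against 322, 330 and 376, and the log2 fold change of 0.58 ± 0.15 (adjusted p 0.0106) was just under 1.5-fold, and a DEM in 3 of 6 fits with a library left out (0.65 without control 14-d replicate 15, 0.60 without low dose 14-d replicate 40 and 0.64 without replicate 41). Its 2 DEMs came on 28-d, where the controls were 312, 240 and 221. The low dose rats had 378, 419 and 428 (log2 fold change 0.66 ± 0.22, adjusted p 0.249), and the middle dose rats 436, 390 and 374 (0.63 ± 0.18, adjusted p 0.0232). The high dose rats had 345, 392 and 395, which gave 0.55 ± 0.18 (adjusted p 0.0902) and no DEM. All 9 treated rats on 28-d lay above all 3 controls. Of all tested miRNAs, 5.65% at the low, 28.9% at the middle and 21.6% at the high dose had every treated rat above every control. Each of the 2 DEMs was kept in 3 of 6 fits with a library left out. Without control 28-d replicate 18, the lowest of the controls, the log2 fold changes were 0.56 and 0.54, and without control 28-d replicate 17 they were 0.61 and 0.58, and both calls were lost each time. The low dose call was also lost without low dose 28-d replicate 30 (0.63) and the middle dose call without middle dose 28-d replicate 37 (0.57). At the high dose it became a DEM without control 28-d replicate 16 (0.71) or high dose 28-d replicate 19 (0.61). Of 10 other settings the low dose call held in 7 (0.14 to 0.87) and the middle dose call in 5 (0.12 to 0.92). With pooled controls both were lost, at 0.14 and 0.12. The middle dose call was also lost under TMM normalization (0.56), DESeq2's size factors and its Wald test (both 0.58) and no filter (0.48), and the low dose call with at least 5 RPM in every library (0.58) and by adjusted p-value.

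The 28-d controls were themselves low. miR-93-5p in controls was 486 and 548 on 3-d (254 in control 3-d replicate 1), 422 to 480 on 7-d, 322 to 376 on 14-d and 221 to 312 on 28-d. The 28-d controls were lower than the 3-d controls, with a log2 difference of -0.75 ± 0.18 (adjusted p 0.00196, edgeR fit of all libraries), and than the 7-d controls, with -0.79 ± 0.18 (adjusted p 0.00397). The second was -0.69 without control 28-d replicate 18, with an adjusted p of 0.0555. In treated rats the group means of miR-93-5p lay between 378 and 408 normalized RPM on 28-d and between 431 and 520 on 7-d.

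miR-25-3p, the most abundant member, was above its controls in all 12 conditions, with log2 fold changes between 0.12 and 0.84, and under the 3 other scalings too. Its only DEM was the low dose on 14-d, where the rats gave 2041, 2165 and 2593 normalized RPM, against 1215, 1172 and 1398 in the controls. The log2 fold change was 0.84 ± 0.14 (adjusted p 0.00108 by edgeR), and the lowest treated rat was well above the highest control. Every treated rat lay above every control in 32.9% of all tested miRNAs in that condition. On 7-d the low dose rats gave 1935, 2070 and 2048, against 1429, 1457 and 1283. That difference of 0.54 ± 0.09 (adjusted p 0.00210 by edgeR) was tighter but under 1.5-fold. In 8 of 10 other settings it was not a DEM either, and in the rest it was (0.42 to 0.63 over all 10). On 3-d the low dose rats gave 2151, 1807 and 2181, against 1057, 1463 and 1525, with a log2 fold change of 0.60 ± 0.27 (adjusted p 0.260). Without control 3-d replicate 1 it was 0.45 with an adjusted p of 0.0387 by edgeR, under 1.5-fold. The 3-d result was also no DEM in 8 of 10 other settings and became one in the rest (0.32 to 0.66 over all 10). On 28-d the 3 doses lay between 1343 and 1701, all above the controls at 975 to 1330. Such a separation was seen in 5.65% of all tested miRNAs at the low, 28.9% at the middle and 21.6% at the high dose. The log2 fold changes of 0.25 to 0.31 did not pass the test.

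For miR-25-3p the low dose stood above the other doses on 7-d and 14-d. The log2 difference of the middle from the low dose was -0.42 ± 0.16 (SE, adjusted p 0.0462) on 7-d and -0.55 ± 0.16 (adjusted p 0.0127) on 14-d. That of the high from the low dose was -0.66 ± 0.16 (adjusted p 0.00453) on 14-d. The call on 7-d was lost in 24 of 48 fits with a library left out. All 3 calls held under TMM normalization and were lost with library size alone (-0.20, -0.24 and -0.29, adjusted p 0.340, 0.281 and 0.186) and with no filter (-0.38, -0.42 and -0.39, adjusted p 0.107, 0.0940 and 0.182). Together with the 6 differences of miR-93-3p, these were the 9 of 72 dose differences called over the members (12.5%), beside 10.9% over all tested miRNAs. None of the 54 differences of effects between times was called in the members by edgeR, beside 2.95% over all tested miRNAs, although 4 had an unadjusted p below 0.05. For miR-93-3p at the low dose the effect on 28-d was higher than on 7-d by 1.53 ± 0.48 (log2; adjusted p 0.193). Without low dose 28-d replicate 29 it was 1.91 with an adjusted p of 0.00465, a call that rests on leaving out this rat.

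miR-25-5p, the rare partner arm of miR-25-3p, had the most DEMs and the fewest reads, 8 to 85 per library, and reached 5 RPM in 17 of the 48 libraries. It passed the filter mostly through treated libraries. No control of 7-d, 14-d or 28-d reached 5 RPM, and every middle dose library of these times did. At the middle dose on 14-d it was 5.62, 5.62 and 7.38 normalized RPM, against 3.93, 2.41 and 2.98, a log2 fold change of 1.00 ± 0.28 (adjusted p 0.0273). At the middle dose on 7-d it was 5.49, 5.01 and 6.21, against 3.31, 3.33 and 3.50 (0.72 ± 0.18, adjusted p 0.0181). Both groups of 3 lay above their controls by more than the spread among the controls. Every treated rat lay above every control in 23.9% of all tested miRNAs at the middle dose on 14-d and in 24.3% on 7-d. The other DEMs, with log2 fold changes of 0.65 to 0.73 at the high dose on 7-d, the low dose on 14-d and the middle dose on 28-d, had adjusted p-values of 0.0738 to 0.144. Each of these 3 was called in 2 of 6 fits with a library left out. The high dose call on 7-d was lost without any 1 of the 7-d controls or without high dose 7-d replicate 25 (0.51 to 0.68). The low dose call on 14-d was lost without control 14-d replicate 14 or 15 or low dose 14-d replicate 40 or 41 (0.58 to 0.77). The middle dose call on 28-d was lost without control 28-d replicate 16 or any 1 middle dose 28-d rat (0.36 to 0.72). Of 9 other settings the calls held in 2, 2 and 3, over log2 fold changes of 0.47 to 0.72, 0.45 to 0.73 and 0.48 to 0.97. All 3 were lost under TMM normalization, DESeq2's size factors, its Wald test, no filter and pooled controls. The 2 calls at the middle dose on 7-d and 14-d held in 8 of 9 and were lost with pooled controls (0.57 and 0.73). The number of DEMs of miR-25-5p ran from 0 to 6. On 3-d all 3 doses were below the controls, with log2 fold changes of -1.09 at the low, -0.59 at the middle and -0.53 at the high dose, none a DEM. This direction rests on control 3-d replicate 1, at 22.6 normalized RPM from 8 reads against 3.49 and 4.84 in the other controls. Without it the values were -0.39, 0.18 and 0.31. With it the low dose value became a lower DEM by the DESeq2 Wald test, edgeR's exact test and 1 fit of all 48 libraries.

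miR-106b-3p gave a single DEM, at the low dose on 14-d, with 23.8, 29.3 and 36.1 normalized RPM against 18.5, 16.6 and 20.3. The log2 fold change was 0.69 ± 0.21 (adjusted p 0.0224), and 0.53 without low dose 14-d replicate 42, the highest rat, which ended the call. It held in 3 of 10 other settings, and the call was lost under TMM normalization (0.52), DESeq2's size factors (0.56), library size alone (0.55), both other filters (0.45 and 0.49), the DESeq2 Wald test (0.56) and pooled controls (0.35). On 7-d the low dose rats had 27.2, 33.1 and 32.8, against 23.1, 18.9 and 20.9, and the difference of 0.57 ± 0.14 (adjusted p 0.0129) was under 1.5-fold. It became a DEM without control 7-d replicate 4 (0.64) or low dose 7-d replicate 46 (0.66). The high dose on 7-d, at 0.56 ± 0.25 (adjusted p 0.190), became a DEM without high dose 7-d replicate 25 (0.66) or replicate 26 (0.72), and was 0.27 (adjusted p 0.360) without replicate 27. On 3-d the 3 doses were at -0.62 to -0.88 on the log2 scale, but control 3-d replicate 1 was at 118 normalized RPM and the other 3-d controls at 23.4 and 22.6. Without that library the values were 0.34 at the low, 0.26 at the middle and 0.52 at the high dose, and none was a DEM either way. Later controls were also lower than the 3-d controls, with log2 differences of -1.26 ± 0.37 (adjusted p 0.0121) on 14-d and -1.66 ± 0.37 (adjusted p 0.000937) on 28-d. Without control 3-d replicate 1 these were -0.32 and -0.72, and the first was no longer called. With the pair for miR-93-5p they were the 4 of 36 control differences called over the members (11.1%), beside 13% over all tested miRNAs.

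miR-106b-5p, its guide arm, varied least of the 6, with a coefficient of variation of 15.4% over the 47 libraries other than control 3-d replicate 1. It had no DEM in 12 conditions. Over 10 other settings it had 0 or 1, the 1 being the middle dose on 28-d, with log2 fold changes of 0.30 to 0.76 there. On 28-d the middle dose rats had 103, 96.1 and 86.6 normalized RPM and the high dose rats 94.5, 94.3 and 99.2, against 71.8, 67.7 and 65.1 in the controls. All 6 were above all controls, as in 28.9% of all tested miRNAs at the middle and 21.6% at the high dose. The log2 fold changes were 0.48 ± 0.16 (adjusted p 0.0367 by edgeR) and 0.49 ± 0.14 (adjusted p 0.0774), both under 1.5-fold. The low dose rats on 28-d, at 72.8, 68.4 and 82.2, overlapped the controls, with a log2 fold change of 0.13 ± 0.18 (adjusted p 0.741).

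Both arms of a hairpin come from the same precursor and the same library, so that their ratio does not depend on how libraries are scaled. The ratio of 5p to 3p reads of miR-93 was 23.96 to 70.1 in the 12 controls, with a median of 41.9. At the low dose it was 55.0 to 205 with a median of 151, at the middle dose 39.4 to 74.2 with a median of 48.8, and at the high dose 38.8 to 133 with a median of 57.8. Only the low dose lay for the most part outside the control range. The mean log2 difference from controls over the 4 times was 1.66 at the low dose, with p = 3.75e-05 in an exact 2-sided permutation test within times (12 rats against 12) and 0.000338 adjusted over 9 such tests. It was 1.84, 1.96 and 1.79 on 3-d, 7-d and 14-d and 1.06 on 28-d. Without control 3-d replicate 1, with 3 reads of the 3p arm, the low dose difference was 1.47 on 3-d and 1.57 over the 4 times, still called. At the high dose the mean difference was 0.50 (exact permutation p = 0.0108, adjusted 0.0487), and at the middle dose 0.29 (exact permutation p = 0.0711, adjusted 0.160). The call at the high dose was lost in 16 of 24 tests with a library left out. Among these was the test without control 3-d replicate 1 (0.41, adjusted exact permutation p 0.0707).

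A change in the balance of arms was common at the low dose. Of 81 hairpins with both arms tested, 43.2% had a low dose difference with a p below 0.05 after adjustment over all 243 such tests, 16% a middle dose and 13.6% a high dose difference. Among the 81, miR-93 had the largest low dose difference, where the median size was 0.41 on the log2 scale, and ranked 14 at the high dose. The 9 low dose libraries of 3-d, 7-d and 14-d lay apart from all 12 controls in 14.8% of hairpins, 8 toward the 5p and 4 toward the 3p arm. These counts over all hairpins were added after the values of the cluster were seen.

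**Figure D3:**
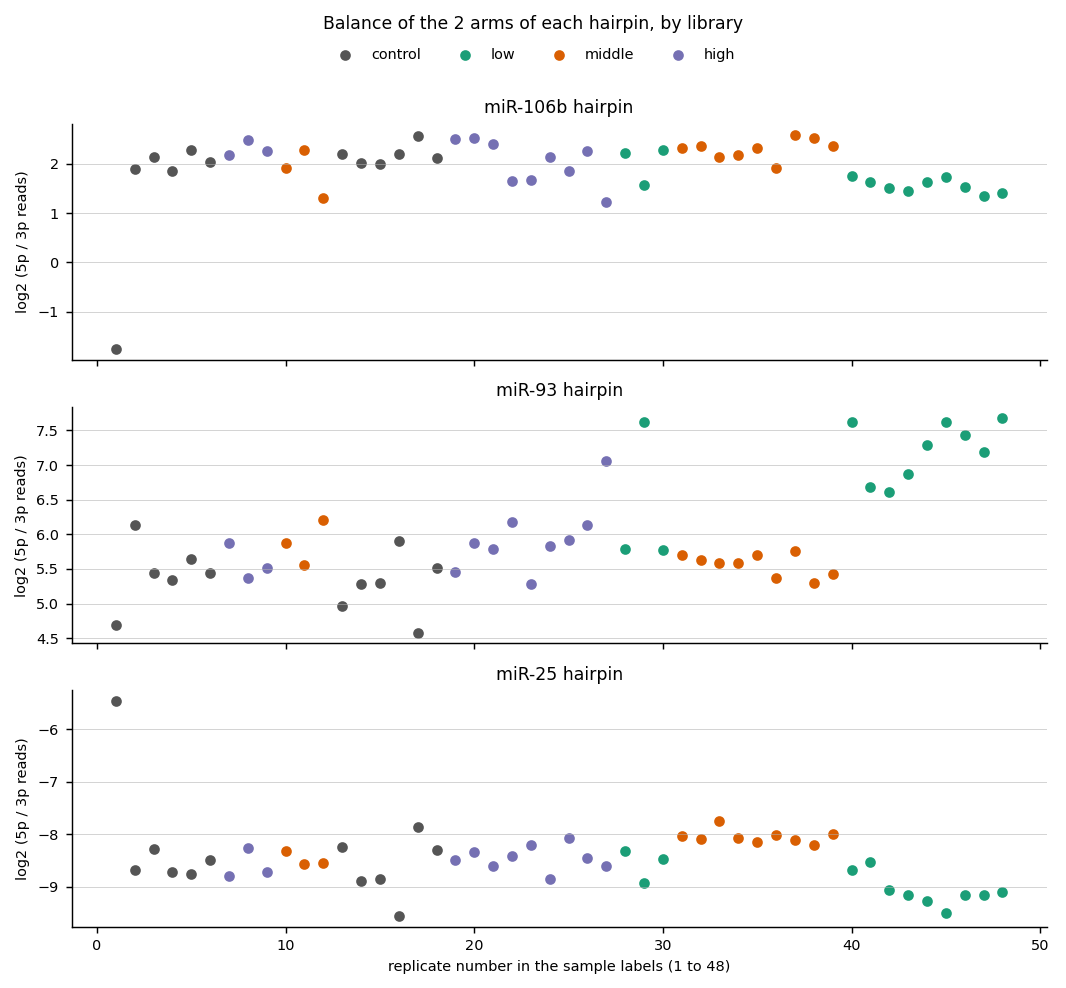
Log2 ratio of 5p to 3p reads (with 0.5 added to each) of the 3 hairpins against the replicate number of each of the 48 libraries, coloured by dose. In the miR-93 panel the 9 libraries numbered 40 to 48, low dose replicate 29 and high dose replicate 27 stand above all others. Control replicate 1 stands apart in the miR-106b and miR-25 panels.

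The 11 libraries with the highest miR-93 ratio were all 9 low dose libraries of 3-d, 7-d and 14-d, low dose 28-d replicate 29 at 197 and high dose 7-d replicate 27 at 133. The lowest of the 11 was at 97.7 and the next library, middle dose 3-d replicate 12, at 74.2. The other low dose rats on 28-d were at 55.2 and 55.0, against 23.96, 45.7 and 59.9 in their controls. Without replicate 29 the mean low dose difference on 28-d was 0.45, against 1.06 with it. The mean difference over the 4 times was then 1.51, still called. The sample labels number the libraries 1 to 48, and the low dose libraries of 3-d, 7-d and 14-d are numbers 40 to 48, which no other group shares. Their dose and anything that goes with these numbers cannot be told apart.

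The summed hepatocyte miRNA level was also high in most of these libraries. The summed level of the 4 hepatocyte markers was 290107 to 382506 normalized RPM in the 9 low dose libraries of 3-d, 7-d and 14-d, against 103835 to 277207 in the controls of these times. Low dose 28-d replicate 29, at 352118, ranked 4 of 48, and the others on 28-d were at 215238 and 229242. High dose 7-d replicate 27, at 265832, ranked 21 and was inside the control range. Middle dose 14-d replicate 31, at 294501, ranked 10 and lay above low dose 3-d replicate 44, with a miR-93 ratio of 52.2. In the same 9 libraries the summed level of the 5 stellate or smooth muscle markers was 44619 to 57576, against 19385 to 47838, that of the 4 leukocyte markers 1845 to 3051, against 2435 to 4321, and that of the 4 red blood cell markers 3783 to 6255, against 3815 to 81096. By median level each sum is mostly 1 miRNA: miR-192-5p, miR-143-3p, miR-142-5p and miR-486, in the order given above. At the low dose the hepatocyte list held 1 higher DEM on 7-d, and 1 higher and 1 lower on 14-d. The stellate or smooth muscle list held 1 lower DEM on each of 3-d, 7-d and 14-d and none higher. The leukocyte list held 1 lower DEM on 3-d and 2 on each of 7-d and 14-d, and none higher. The red blood cell list held none on 3-d, 2 lower DEMs on 7-d and 1 on 14-d, and none higher. The part of cell composition in the values of miR-93-3p, miR-25-3p and the arm ratio was not tested.

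The other hairpins differed less. In miR-106b the 5p arm held a median of 80.9% of the hairpin's reads in controls, 75.3% at the low dose, 83.1% at the middle and 82.3% at the high dose. The mean log2 difference at the low dose was -0.12 (exact permutation p = 0.910), with 0.84 on 3-d and -0.63, -0.44 and -0.27 at the later times. Control 3-d replicate 1, with 12 reads of the 5p and 42 of the 3p arm, had 22.2%, and the next lowest library 70.1%. Without it the low dose difference was -0.44, with an exact permutation p of 0.000138 and 0.000619 adjusted over 9, toward the 3p arm and thus opposite to miR-93. In miR-25 the 5p arm held a median of 0.255% of reads in controls, 0.181% at the low, 0.360% at the middle and 0.278% at the high dose. The low dose difference of -0.60 (exact permutation p = 0.0341, adjusted 0.102) did not pass the test. The middle dose difference was 0.19 (exact permutation p = 0.624), and without control 3-d replicate 1 it was 0.44 (exact permutation p = 0.0044, adjusted 0.0132).

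Across the 16 group means, the levels of the members did not move as a single unit. Pearson's r of log2 (normalized RPM + 1) was 0.81 between miR-93-5p and miR-25-3p and 0.60 between miR-106b-5p and miR-93-5p. Between miR-93-5p and its own partner arm it was -0.29, and between miR-93-3p and miR-25-3p -0.69. Between the arms of miR-106b it was 0.14, and 0.54 without control 3-d replicate 1. Without that library r of miR-106b-3p was 0.88 with miR-25-3p, 0.83 with miR-93-5p and -0.45 with miR-93-3p. With it these were 0.62, 0.69 and -0.30. The 16 points share libraries and scaling, and these values are a description. By the same measure the tested miRNAs most like each member were miR-20a-5p (0.89), miR-148b-5p (0.87) and miR-17-1-3p (0.84) for miR-106b-5p, and miR-107-3p (0.95), miR-103-3p (0.85) and miR-449a-5p (0.83) for miR-93-5p. For miR-25-3p they were miR-466c-5p (0.93), miR-674-5p (0.93) and miR-7a-5p (0.92). For miR-93-3p they were miR-128-3p (0.88), miR-503-3p (0.86) and miR-484 (0.85). For miR-106b-3p they were miR-324-5p (0.86), miR-128-1-5p (0.86) and miR-320-3p (0.85). For miR-25-5p they were miR-219a-1-3p (0.82), miR-671 (0.81) and miR-92b-3p (0.80). Without control 3-d replicate 1 these were 0.83, 0.80 and 0.80 for miR-106b-3p and 0.79, 0.71 and 0.70 for miR-25-5p. The neighbours of miR-106b-5p thus included miR-20a-5p and miR-17-1-3p, both from the paralogous miR-17-92 cluster.

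The miRNAs that share a seed with a member are shown because the comparison of seed families rests on them, with the seed in capitals.
miR-17-5p: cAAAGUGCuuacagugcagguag
miR-20a-5p: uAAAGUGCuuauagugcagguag
miR-92a-3p: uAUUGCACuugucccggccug
miR-92b-3p: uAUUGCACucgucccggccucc
miR-32-5p: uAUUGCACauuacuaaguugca
miR-363-3p: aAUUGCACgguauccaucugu
miR-17-5p and miR-20a-5p each differed from miR-106b-5p at 3 of 21 positions and from miR-93-5p at 4 of 23. miR-25-3p differed from miR-92a-3p at 3 of 21 and from miR-92b-3p at 6 of 22 positions. miR-32-5p differed from it at 9 of 22 and miR-363-3p at 13 of 21 positions.

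**Figure D4:**
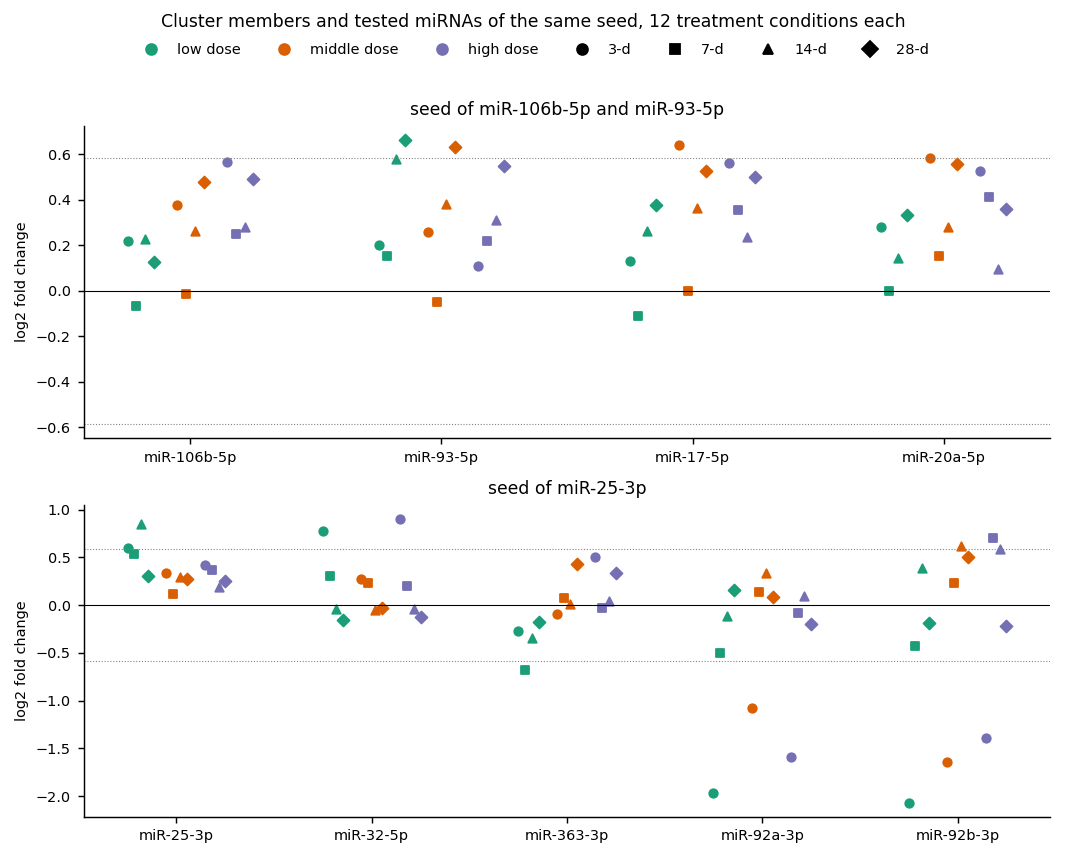
Log2 fold change against time-matched controls in the 12 conditions for members and tested miRNAs of the same seed, coloured by dose, with a symbol for each time and dotted lines at 1.5-fold. miR-17-5p and miR-20a-5p lie between -0.11 and 0.64. The points of miR-92a-3p and miR-92b-3p below -1 are the 3-d conditions, which hold control 3-d replicate 1.

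The list of relatives, from the miR-17-92 and miR-106a-363 clusters, miR-32 and miR-92b, held 23 mature miRNAs, all with a read, of which 12 were tested. They gave 21 DEMs in 144 comparisons (14.6%, beside 18.1% over all tested miRNAs), 14 higher and 7 lower, with 11 at an adjusted p below 0.05. The 3-d conditions held 1 higher and 2 lower, and 2 higher and 3 lower without control 3-d replicate 1. Without it miR-19a-3p (-1.41) and miR-19b-3p (-1.25) became lower DEMs at the low dose. Of the relatives with a member's seed, miR-17-5p and miR-20a-5p had no DEM, like miR-106b-5p, with median log2 fold changes of 0.36 and 0.31. miR-32-5p also had none, but without control 3-d replicate 1 it was a higher DEM at the low dose on 3-d (0.65, adjusted p 0.107), and miR-363-3p had 1, which was lower. miR-92b-3p had 3, all higher. miR-92a-3p, the most abundant at a median of 14770 normalized RPM against 1485 for miR-25-3p, had 2, both lower and both on 3-d. At the high dose the log2 fold change of -1.59 became -0.50 without control 3-d replicate 1 and was no longer a DEM. Its values on 3-d were 11774, 8766 and 9833 at the low dose, against 19575 and 17530 in the controls and 81384 in control 3-d replicate 1. The log2 fold change there was -1.96, and -0.87 without that library (adjusted p 0.0111 by edgeR). On 14-d at the low dose, where miR-25-3p was a DEM at 0.84, the log2 fold change of miR-92a-3p was -0.12 and did not pass the test.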

How the data were processed

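Liver small RNA of 48 rats, 3 in each of 16 groups named by the sample labels, was sequenced. The deposited values are raw counts. The authors made them by removing adaptors, discarding reads outside 18 to 25 bases, and mapping to miRBase release 21 and quantifying with miRDeep2, without normalization, filter or pooling. The submitters' processing notes also name the rn5 genome and FastQC. Where a mature miRNA had several precursor entries, the one with the most reads was used, and each member had 1.

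The members and lists were chosen with earlier results of these data known. All 6 members were described in every condition, called or not. Relatives with the seed of a member, and the 3 tested miRNAs most like each member over the 16 group means, were named.

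The counts were tested with edgeR 4.0.16 in R 4.3.3 (quasi-likelihood F-test, upper quartile normalization) over the 301 miRNAs with at least 5 RPM in at least 3 libraries, in a separate fit of 3 treated and 3 control libraries for each of 12 conditions. A DEM had p below 0.05 and a fold change above 1.5, thresholds taken from the study's methods, and adjusted p-values are Benjamini-Hochberg over all tested miRNAs. Standard errors were derived from the F statistic. Differences between doses (12 contrasts), of effects between times (9) and between controls (6) were tested in a fit of all 48 libraries at an adjusted p below 0.05. With 3 rats against 3 an exact permutation test cannot go below 0.1, so none was used for single conditions.

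The arm ratio was log2 ((5p reads + 0.5) / (3p reads + 0.5)), tested by an exact 2-sided permutation test with labels permuted within times (160000 permutations), with adjustment over the 9 tests of 3 hairpins and 3 doses. Scripts were tested on simulated data. Sequences and positions are from RefSeq, build GRCr8.

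Totals of 293331 to 14906217 counts per library set the precision, and limits from counts cover counting error only. As alternatives, scaling was done by TMM, by DESeq2's size factors or by library size alone, and the filter was removed or set to 5 RPM in every library. The others were the Wald test of DESeq2 1.42.0, edgeR's exact test, all 12 controls pooled, all 48 libraries in 1 fit, adjusted p-values, a pseudocount of 1 and the median for the arm ratio, and each library left out in turn. Added after the data were seen were leaving out each library for differences between doses or times, adjustment of the arm tests over all hairpins, and the relatives on 3-d without control 3-d replicate 1.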

Additional observations from a re-analysis of the deposited data

Results flagged for a closer look

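For miR-93-3p the dose groups differed at 3 times in the fit of all libraries, which tests the difference itself. The log2 difference of the middle from the low dose was 1.44 on 3-d, 1.68 on 7-d and 1.06 on 14-d, and that of the high from the low dose was 1.45, 1.19 and 1.04. miR-93-3p was the lower one at the low dose in all 6 comparisons. With a library left out in turn, the middle dose difference on 7-d passed the test in 48 of 48 fits, with adjusted p-values up to 0.00859. The others passed in 43 to 47 of 48. With no filter the high dose difference on 7-d was 1.06 (adjusted p 0.103) and was lost. On 3-d the middle dose difference was lost without low dose 3-d replicate 45 (1.33) and the high dose difference without high dose 3-d replicate 23 (1.08). On 7-d the high dose difference was lost without any 1 of the low dose 7-d rats or without high dose 7-d replicate 25 or 26 (1.05 to 1.40). On 14-d the middle dose difference was lost without low dose replicate 40 (0.80) or middle dose replicate 32 or 33 (1.06 and 1.05). The high dose difference was lost without low dose replicate 40 or 41 (0.78 and 1.09) or high dose replicate 8 or 9 (1.03 and 0.97).

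For miR-25-3p the log2 difference of the middle from the low dose was -0.42 on 7-d and -0.55 on 14-d, and that of the high from the low dose was -0.66 on 14-d. miR-25-3p was thus higher at the low dose. The last of these passed the test in 48 of 48 fits with a library left out, the 14-d middle dose difference in 47, lost without low dose replicate 42 (-0.45), and the 7-d one in 24, where the lost values were -0.47 to -0.38 and the adjusted p-values up to 0.140. All 3 were lost with library size alone (-0.20 on 7-d, -0.24 and -0.29 on 14-d) and with no filter (-0.38, -0.42 and -0.39), and held under TMM normalization. The low dose libraries of these times carry the numbers 40 to 48 and the summed hepatocyte miRNA level given for them, whose part was not tested. No group had enough libraries for a search for single outlying values.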

How the results depend on the processing

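No paired analysis was possible because the replicate numbers run from 1 to 48 and no 2 groups share a number. The 12 member DEMs became 7 under TMM normalization, 7 with DESeq2's size factors, 6 with at least 5 RPM in every library, 6 with all 12 controls pooled and 7 with adjusted p-values, but 15 with library size alone, and 10 to 13 with a library left out. The 9 higher DEMs became 4 under TMM normalization, 4 with DESeq2's size factors, 4 with no filter, 4 with the DESeq2 Wald test, 3 with pooled controls and 5 with adjusted p-values, but 12 with library size alone. The 3 lower DEMs became 0 with at least 5 RPM in every library, since miR-93-3p and miR-25-5p are then not tested, 4 with no filter, the DESeq2 Wald test, edgeR's exact test or 1 fit of all libraries, and were 3 in every fit with a library left out. With no filter the added one was miR-93-3p at the high dose on 7-d. In the other settings with 4 it was miR-25-5p at the low dose on 3-d, which rests on control 3-d replicate 1. The 9 dose differences became 5 with no filter and 7 to 13 with a library left out (13 without control 3-d replicate 1). The 0 time differences became 4 under TMM normalization, 4 with library size alone and 0 to 3 with a library left out, in 3 for control 3-d replicate 2, in 2 for control 3-d replicate 3 or low dose 28-d replicate 29 and in 1 for control 3-d replicate 1 or control 28-d replicate 17. The 4 control differences became 7 under TMM normalization, 9 with library size alone and 3 to 8 with a library left out (8 without control 3-d replicate 2).

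The arm difference of miR-93 at the high dose was 0.40 with medians, where it did not pass the test, and 0.41 to 0.59 with a library left out. That of miR-93 at the middle dose was 0.20 to 0.38 and passed without control 3-d replicate 2 (0.38) or control 28-d replicate 16 (0.36). That of miR-25 at the low dose was -0.75 to -0.35 and passed without control 3-d replicate 2 (-0.75) or control 28-d replicate 16 (-0.73). That of miR-25 at the middle dose was 0.039 to 0.44, and that of miR-106b at the low dose -0.44 to 0.049, both passing without control 3-d replicate 1. Adjustment over all hairpins changed no arm call. Except where an alternative's construction shows it, the cause of these changes was not tested. miR-93-3p and miR-25-5p have few reads, which limits their precision, and no result reversed its called direction under any alternative run.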
